A study of Mus musculus with 21 samples.

Results

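The miR-216 and miR-217 cluster is a group of microRNAs (miRNAs) on mouse chromosome 11, made of the hairpins of miR-216a, miR-216b, miR-216c and miR-217. Its members were found by name, as every mature miRNA whose name begins with miR-216a, miR-216b, miR-216c or miR-217. The cluster itself was chosen from the same count tables, with its levels in the genotypes and cohorts known, so its levels and fold changes are a description. Where a member is said to be called, this only places it against a threshold used for all miRNAs and is not a test of the cluster. The 8 names were among 1,909 miRNAs counted in one cohort and 1,841 in the other, and 6 of the 8 had at least 1 read in each cohort. Each hairpin gives a 5p product from its 5′ arm and a 3p product from its 3′ arm, and the 5p products of miR-216a, miR-216b and miR-217 carried most of the reads.

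The small RNAs came from pituitaries of female C57BL/6J mice collected in proestrus, each library from a different mouse. The germline *Zeb1200* knock-in allele carries point mutations in the miR-200a and miR-200b sites of the *Zeb1* 3′ UTR, so the edit was present in all cells and not only in the pituitary. *Zeb1 200H* mice had 1 copy, *Zeb1 200M* mice had 2 copies and WT mice had none. Virgin mice were 8 to 12 weeks old (3 WT, 4 *Zeb1 200H* and 4 *Zeb1 200M* libraries), and mice that had gone through a breeding trial were 28 to 36 weeks old (4 WT, 3 *Zeb1 200H* and 3 *Zeb1 200M* libraries). The mutant mice came from 2 embryonic stem cell clones and, in the breeding trial cohort, also from an intercross of both lines.

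miR-216a, miR-216b and miR-217 are best known as miRNAs of the exocrine pancreas, where they are abundant in acinar cells. Like other miRNAs they pair with target mRNAs mainly through the seed, bases 2 to 8 of the mature sequence.

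The 4 hairpins lay within 17,645 bp of chromosome 11 in the mouse build GRCm38.p6. *Mir216b* was at chr11:28746191-28746276, *Mir216a* at chr11:28757012-28757083 and *Mir217* at chr11:28763728-28763835, all on the plus strand, with gaps of 10,735 bp and 6,644 bp between them. *Mir216c*, at chr11:28746198-28746266, was the exception, because it lay on the minus strand and its 69 bases were the reverse complement of a stretch of *Mir216b*. *Mir216a* and *Mir217* lay inside an intron of the long noncoding RNA gene *Gm12082*, whereas *Mir216b* and *Mir216c* lay under no other gene. The nearest protein-coding genes were *Ccdc85a*, 161,866 bp before the cluster, and *Efemp1*, 89,368 bp after it.

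**Figure D1:**
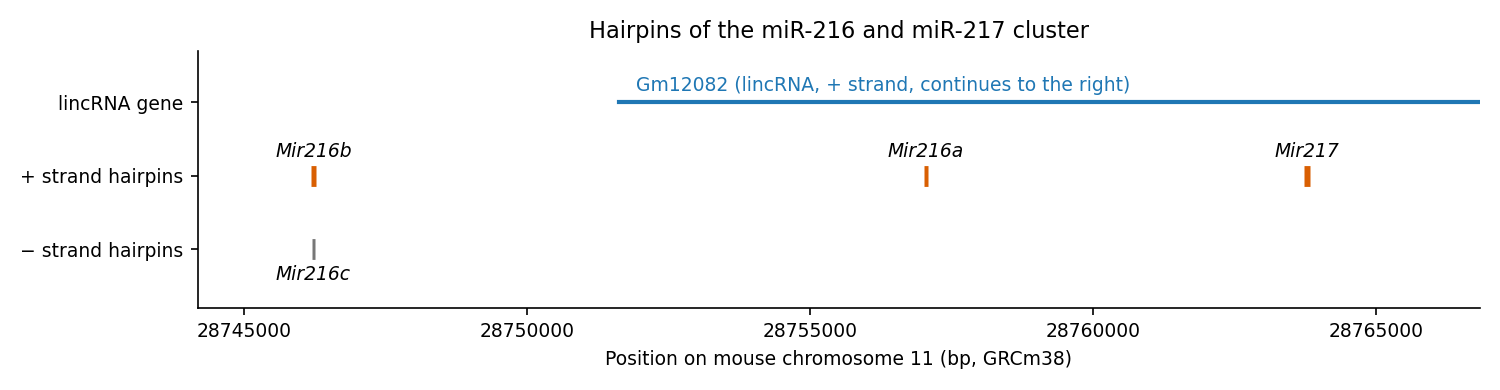
Position of the 4 hairpins of the cluster on mouse chromosome 11 (horizontal axis, position in GRCm38.p6). Boxes are the hairpins by strand, and the line is the part of the noncoding gene *Gm12082* that overlaps *Mir216a* and *Mir217*.

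The mature 5p sequences from RefSeq (GRCm38.p6) are shown to compare their seeds, which are in capitals. All 8 members were matched to an entry.
miR-216a-5p: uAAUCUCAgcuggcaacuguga
miR-216b-5p: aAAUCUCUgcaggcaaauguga
miR-217-5p: uACUGCAUcaggaacugacugga
miR-216a-5p and miR-216b-5p were identical at 18 of 22 bases, and the 4 substitutions, numbered from the 5′ end of miR-216a-5p, were U1A A8U U11A C17A. Their seeds differed only at base 8, so bases 2 to 7 were the same 6 bases in both. miR-217-5p was identical to miR-216a-5p at 6 of 22 bases and had a seed of its own. None of the other mature miRNAs among the 1,679 in RefSeq had the seed of a member or began with the same 18 or 19 bases, the length that the reads had been matched over in the breeding trial and virgin cohorts. No read that matched one member exactly over that length could match another miRNA of that list.

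Levels are given as CPM, the reads of a miRNA per 1,000,000 reads counted for all miRNAs in that library. The virgin libraries held 3,816,917 to 10,806,313 counted reads and the breeding trial libraries 60,037 to 191,650, so that a single read was 5.22 to 16.7 CPM in the breeding trial cohort. For fold changes the counts were scaled by TMM, which sets each library's scale so that most miRNAs do not differ, and fitted with edgeR, separately for each pair of genotypes in each cohort. A miRNA was called where its p-value, adjusted over all miRNAs tested in that pair, was below 0.05. The ± after a mean is the standard deviation over libraries, and the ± after a log2 fold change is its standard error.

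One library stood apart. WT replicate 1 of the virgin cohort had the fewest counted reads of that cohort and a TMM factor of 0.616, against 0.943 to 1.12 in the other 10 libraries. Its correlation with the other virgin libraries over the 501 miRNAs with a mean count of at least 50 was 0.929 to 0.956, where other pairs reached up to 0.998, and miR-7a-5p made up 18.3% of its reads against 10.3% to 12.7% elsewhere. Fold changes, calls and overlaps against virgin WT are therefore given with and without it. Without TMM factors, the median log2 fold change of all miRNAs tested was shifted to 0.34 in virgin *Zeb1 200M* against WT and 0.29 in virgin *Zeb1 200H* against WT. The same medians in the breeding trial cohort were 0.24 and 0.18. The CPM differences from WT below contain that shift, and the TMM-scaled fold changes do not.

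All 21 libraries carried the miRNAs known for the pituitary. A list of 4 such miRNAs (miR-7a-5p, miR-375-3p, miR-141-3p and miR-200c-3p) summed to 254,392 CPM or more in each virgin WT library and to 277,657 CPM or more in each breeding trial WT library, with none of the 4 at 0 in any library. A list of 4 liver and muscle miRNAs summed to 11.4 to 18.6 CPM in virgin WT, 20.5 to 80.2 CPM in *Zeb1 200M* and 22.5 to 54.2 CPM in *Zeb1 200H*. It was thus rare in all libraries but higher in every virgin mutant library than in virgin WT in CPM, which contain the shift given above. In CPM 30.5% of all miRNAs were higher in this way in *Zeb1 200M* and 28.4% in *Zeb1 200H*. The sum of the list was not set on the TMM scale. miR-1a-3p was its most abundant miRNA in 10 of the 11 virgin libraries and none of the 4 was at 0. Its median log2 fold change in virgin *Zeb1 200M* against WT was 1.74. None of the 4 was called, and 3 were called up without WT replicate 1 of that cohort, where 23.9% of all miRNAs were called. The breeding trial means were 18.9 CPM in WT, 40.5 CPM in *Zeb1 200H* and 11.9 CPM in *Zeb1 200M*, with overlapping ranges from 0 to 66.6 CPM and 1 to 3 of its miRNAs at 0 in each library. The part of muscle or liver tissue in the cluster levels was not tested.

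In virgin WT pituitary the cluster was of moderate abundance, with miR-216a-5p at rank 241 of the 1,909 miRNAs, miR-217-5p at 298 and miR-216b-5p at 299 by mean CPM. In breeding trial WT pituitary the ranks were 218 for miR-216a-5p, 253 for miR-216b-5p and 266 for miR-217-5p of 1,841. The ranges of miR-216b-5p and miR-217-5p overlapped in WT of both cohorts, although in the breeding trial cohort miR-216b-5p was at or above miR-217-5p in each of the 4 libraries. miR-216c-5p and miR-216c-3p had no read in any of the 21 libraries. Taking 3 reads as the upper limit, each was below 0.0297 CPM over all virgin reads and below 2.54 CPM over all breeding trial reads.

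Nearly all reads of each hairpin came from the 5p arm. In the virgin libraries together the 5p product held 98.7% of the reads of miR-216a, 97.9% of those of miR-216b and 93.8% of those of miR-217. The shares in the breeding trial libraries were 98.2%, 97.2% and 93.3%, but there the 3p products had only 6, 4 and 8 reads in all. Arm preference was thus the same in both cohorts to within a few reads.

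miR-216a-5p was the most abundant member. In the virgin cohort it stood at 93.5, 151 and 162 CPM in WT (136 ± 36.8), at 214, 198, 299 and 219 CPM in *Zeb1 200H* (233 ± 45.1), and at 269, 222, 279 and 263 CPM in *Zeb1 200M* (258 ± 24.9). Every library of either mutant was above every WT library, and the 2 mutant groups overlapped. The lowest of all 11 values was that of WT replicate 1, and the separation held on the TMM scale too, where that library was still the lowest but closer to the other WT libraries (152 to 165 CPM in WT, 199 to 252 CPM in *Zeb1 200M* and 183 to 289 CPM in *Zeb1 200H*). As these are whole pituitaries, more RNA per cell and more cells of a type that makes the miRNA cannot be told apart, here or below.

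miR-216b-5p, which shares bases 2 to 7 with miR-216a-5p, stood at 51.1, 68.0 and 67.7 CPM in virgin WT (62.3 ± 9.67), at 88.0, 84.5, 107 and 81.9 CPM in *Zeb1 200H* (90.2 ± 11.2), and at 89.0, 88.3, 108 and 107 CPM in *Zeb1 200M* (98.2 ± 10.98). Both mutant groups were above all WT libraries in CPM. On the TMM scale they overlapped with WT, which then ran from 69.0 to 83.0 CPM. miR-217-5p stood at 68.6, 58.8 and 64.1 CPM in WT (63.8 ± 4.95), at 77.3, 64.8, 101 and 72.03 CPM in *Zeb1 200H* (78.9 ± 15.9), and at 91.3, 86.7, 91.7 and 100.4 CPM in *Zeb1 200M* (92.5 ± 5.72). For miR-217-5p only *Zeb1 200M* was above all WT libraries in CPM, and on the TMM scale it overlapped with WT because WT replicate 1 then had the highest value of all, 111 CPM.

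The share of all miRNAs with every *Zeb1 200M* library above every WT library in the virgin cohort was 30.5% in CPM and 13.9% on the TMM scale. For virgin *Zeb1 200H* against WT the shares were 28.4% and 13.5%. Beside these, the 3 abundant members were above WT in CPM in 3 of 3 cases for *Zeb1 200M* and 2 of 3 for *Zeb1 200H*, and on the TMM scale in 1 of 3 for each, miR-216a-5p. Without WT replicate 1 the shares over all miRNAs were 37.3% and 21.5% for *Zeb1 200M* and 33.9% and 21.4% for *Zeb1 200H*, and the members were above WT in 3 of 3 cases except on the TMM scale for *Zeb1 200H*, with 2 of 3. The members had been picked with these values known, so nothing is read from the difference.

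**Figure D2:**
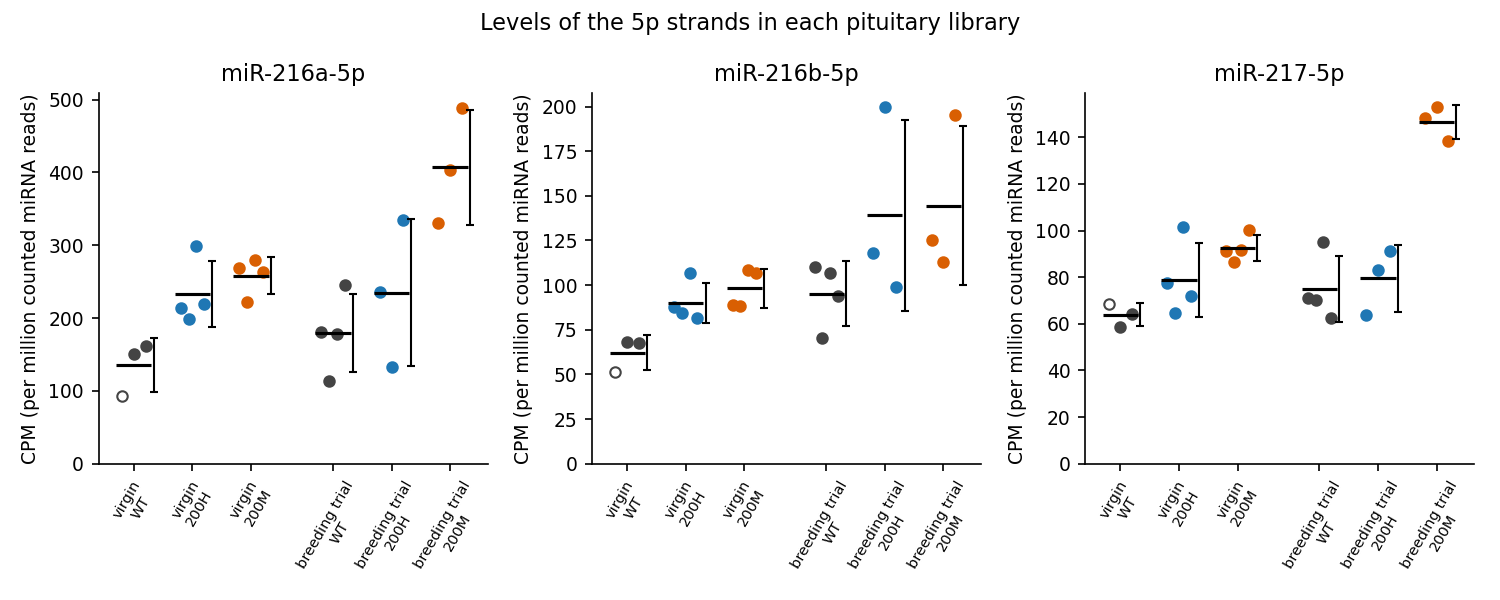
Level in CPM (vertical axis) of miR-216a-5p, miR-216b-5p and miR-217-5p in each library of the virgin and breeding trial cohorts, by genotype. Points are libraries (1 mouse each), bars are group means with standard deviations, and the open circle is WT replicate 1 of the virgin cohort.

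In the edgeR fit of virgin *Zeb1 200M* against WT, the log2 fold change was 0.57 ± 0.14 for miR-216a-5p, 0.27 ± 0.16 for miR-216b-5p and 0.10 ± 0.23 for miR-217-5p. All 6 members with reads were tested and 0 were called, beside 6.49% of all miRNAs (44 of 678, 18 up and 26 down, with 150 below an unadjusted p of 0.05). DESeq2 called 1 member, miR-216a-5p, beside 13.3% of all miRNAs (86 of 645), and the fit of all 3 genotypes together also called miR-216a-5p, beside 12.8% (90 of 704). With total counted reads only, miR-216a-5p and miR-216a-3p were called, beside 8.55% of all miRNAs (58 of 678). limma voom with weights for library quality called miR-216a-5p, miR-217-5p (0.38) and miR-216a-3p (1.26), beside 27.1% of all miRNAs (184 of 678). Without WT replicate 1 the log2 fold changes were 0.56 ± 0.11, 0.37 ± 0.12 and 0.43 ± 0.11, and these 3 members and miR-216a-3p were called, beside 23.9% of all miRNAs (168 of 703). The value of miR-216a-5p thus hardly depended on that library, whereas miR-217-5p went from 0.10 to 0.43. Leaving out WT replicate 2 or WT replicate 4 instead gave −0.05 and −0.0035 for miR-217-5p, so its direction was not settled in this comparison. With total counted reads as the only scale, the values were 0.93, 0.65 and 0.54, and the calls over all miRNAs were split 39 up and 19 down.

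Virgin *Zeb1 200H* mice, with 1 mutant copy, had log2 fold changes against the same WT libraries of 0.47 ± 0.18 for miR-216a-5p, 0.20 ± 0.17 for miR-216b-5p and −0.08 ± 0.26 for miR-217-5p. The sign for miR-217-5p was not stable, as it was 0.31 with total counted reads only, 0.18 with limma voom, 0.24 without WT replicate 1 and 0.01 without *Zeb1 200H* replicate 2. None of the 6 members was called, beside 5.06% of all miRNAs (34 of 672, 11 up and 23 down, with 131 below an unadjusted p of 0.05 and 66 calls by DESeq2). limma voom called miR-216a-5p (0.39) and miR-216a-3p (1.27), beside 22.6% of all miRNAs (152 of 672). Without WT replicate 1 the values were 0.45 ± 0.15, 0.28 ± 0.13 and 0.24 ± 0.16, and 1 member, miR-216a-3p, was called, beside 21.6% of all miRNAs (151 of 699). Under total counted reads only the calls over all miRNAs were split 21 up and 21 down.

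The 2 mutant genotypes were close to each other in the virgin cohort. The log2 fold change of *Zeb1 200M* over *Zeb1 200H* was 0.09 ± 0.13 for miR-216a-5p, 0.06 ± 0.11 for miR-216b-5p and 0.17 ± 0.13 for miR-217-5p, with all 3 members overlapping between the groups. Every *Zeb1 200M* library was above every *Zeb1 200H* library for 5.93% of all miRNAs in CPM and 1.93% on the TMM scale. None of the 6 members was called, beside 2.22% of all miRNAs (15 of 675, 5 up and 10 down, with 63 below an unadjusted p of 0.05 and 20 calls by DESeq2). WT replicate 1 has no part in this comparison.

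The 3p products were rare in the virgin libraries. miR-217-3p was at 1.31 to 3.79 CPM in WT, 4.37 to 7.53 CPM in *Zeb1 200M* and 4.33 to 7.54 CPM in *Zeb1 200H*, so that both mutant groups were above WT in CPM. miR-216a-3p was at 1.11 to 1.83 CPM, 2.53 to 3.53 CPM and 2.44 to 4.76 CPM in the same order, again without overlap with WT. miR-216b-3p was at 0.262 to 1.77 CPM in WT and 1.58 to 2.59 CPM in *Zeb1 200M*, which overlapped, and at 1.88 to 2.27 CPM in *Zeb1 200H*. Every *Zeb1 200M* library was above every WT library in CPM for 30.5% of all miRNAs, and every *Zeb1 200H* library for 28.4%. Their log2 fold changes in *Zeb1 200M* against WT were 0.95 ± 0.36 for miR-216a-3p, 0.24 ± 0.38 for miR-216b-3p and 0.73 ± 0.29 for miR-217-3p, and without WT replicate 1 they were 1.30 ± 0.34, 0.06 ± 0.35 and 0.62 ± 0.27. In *Zeb1 200H* against WT they were 1.12 ± 0.41, 0.32 ± 0.34 and 0.82 ± 0.30, and without that library 1.44 ± 0.39, 0.12 ± 0.33 and 0.69 ± 0.29. On the TMM scale only miR-217-3p in *Zeb1 200M* and miR-216b-3p in *Zeb1 200H* were clear of WT, where the shares over all miRNAs were 13.9% and 13.5%. Both margins were below 1 read. miR-217-3p was at 4.11 CPM at the lowest in *Zeb1 200M* and 4.02 CPM at the highest in WT. For miR-216b-3p in *Zeb1 200H* and WT these values were 1.82 and 1.81 CPM. With WT replicate 1 left out, miR-216a-3p was clear of WT as well in both mutants (shares 21.5% and 21.4%). In virgin mice each 3p product thus had a higher mean in the mutants than in WT, as its 5p partner did in CPM. The few breeding trial reads did not all go that way. Means in WT, *Zeb1 200H* and *Zeb1 200M* were 1.30, 8.09 and 8.05 CPM for miR-216a-3p and 2.61, 5.08 and 0 CPM for miR-216b-3p. For miR-217-3p they were 8.93, 2.54 and 5.43 CPM.

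In the breeding trial cohort miR-216a-5p stood at 181, 114, 178 and 245 CPM in WT (179.7 ± 53.6), at 236, 133 and 335 CPM in *Zeb1 200H* (235 ± 101), and at 331, 403 and 489 CPM in *Zeb1 200M* (407 ± 79.0). All *Zeb1 200M* libraries were above all WT libraries, in CPM and on the TMM scale (309 to 449 CPM against 119 to 274 CPM). *Zeb1 200H* overlapped with both. These values rest on 13 to 47 reads per WT library, 8 to 44 per *Zeb1 200H* library and 29 to 60 per *Zeb1 200M* library. The 95% interval from counting error alone ran from 60.8 to 195 CPM in WT replicate 2, the lowest WT library, and from 373 to 629 CPM in *Zeb1 200M* replicate 3. Such intervals leave out the error of amplification, since reads copied in PCR were counted without molecular tags.

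miR-217-5p stood at 71.2, 70.2, 95.1 and 62.6 CPM in breeding trial WT (74.8 ± 14.1), at 63.6, 83.3 and 91.4 CPM in *Zeb1 200H* (79.4 ± 14.3), and at 148, 153 and 138 CPM in *Zeb1 200M* (147 ± 7.43). It was the only member for which *Zeb1 200M* stood above both WT and *Zeb1 200H* without overlap, in CPM and on the TMM scale. Against *Zeb1 200H* alone this held for 12.0% of all miRNAs in CPM and 9.12% on the TMM scale, beside 1 of 3 members on each. The counts behind it were 5 to 19 reads per library. miR-216b-5p stood at 110.0, 70.2, 107 and 93.9 CPM in WT (95.3 ± 18.1), at 118, 199.9 and 99.0 CPM in *Zeb1 200H* (139 ± 53.6), and at 125, 113 and 195 CPM in *Zeb1 200M* (145 ± 44.5). In CPM all *Zeb1 200M* libraries were above WT, by a margin of less than 1 read, and on the TMM scale the groups overlapped.

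The breeding trial log2 fold changes of *Zeb1 200M* over WT were 0.90 ± 0.24 for miR-216a-5p, 0.37 ± 0.30 for miR-216b-5p and 0.78 ± 0.30 for miR-217-5p. These 3 members had enough reads to be tested, and 2 of them, miR-216a-5p and miR-217-5p, were called, beside 35.9% of all miRNAs (99 of 276, 56 up and 43 down). DESeq2 called 73 of 332 miRNAs, 32 up and 41 down. The share of all miRNAs with every *Zeb1 200M* library above every WT library was 33.3% in CPM, beside 3 of 3 members, and 20.7% on the TMM scale, beside 2 of 3. miR-216a-5p was called in each of the 7 fits that left out 1 library, with values from 0.76 to 1.17. miR-217-5p lost its call in DESeq2 (0.74), without the filter on low counts (0.74), with replicate numbers as blocks (0.72) and in 6 of the 7 fits that left out 1 library. Those 6 left out WT replicates 1 (0.78), 2 (0.77) and 4 (0.72) and *Zeb1 200M* replicates 1 (0.78), 2 (0.73) and 3 (0.85), so that the call changed while the value did not. With total counted reads only, miR-217-5p had a value of 1.02 and the calls over all miRNAs were split 84 up and 26 down.

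With 1 mutant copy the breeding trial values were closer to WT. Against the same WT libraries, the log2 fold change of *Zeb1 200H* was 0.26 ± 0.29 for miR-216a-5p and 0.25 ± 0.33 for miR-216b-5p, and miR-217-5p had too few reads to be tested. Both signs rested on single libraries, because miR-216a-5p was at −0.09 without *Zeb1 200H* replicate 4 and miR-216b-5p at −0.01 without *Zeb1 200H* replicate 3. Neither member was called, beside 12.0% of all miRNAs (32 of 267, 13 up and 19 down, with 73 below an unadjusted p of 0.05 and 26 calls by DESeq2). These fits took no account of replicate numbers, which paired in this comparison alone. With the numbers as blocks, over libraries whose number occurs in both genotypes, both values were lower and 42 of 271 miRNAs were called. All 3 members overlapped between *Zeb1 200H* and WT, beside 23.6% of all miRNAs with every *Zeb1 200H* library above WT in CPM and 12.4% on the TMM scale. Under total counted reads only the calls over all miRNAs were split 54 up and 15 down.

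*Zeb1 200M* over *Zeb1 200H* in the breeding trial cohort gave 0.66 ± 0.25 for miR-216a-5p, 0.15 ± 0.35 for miR-216b-5p and 0.83 ± 0.39 for miR-217-5p. The value of miR-216b-5p had no stable sign, at −0.02 with replicate blocks, −0.06 without *Zeb1 200H* replicate 4 and −0.15 without *Zeb1 200M* replicate 3. None of the 3 was called, beside 1.09% of all miRNAs (3 of 274, 1 up and 2 down, with 40 below an unadjusted p of 0.05 and 3 calls by DESeq2). Within this cohort the means of miR-216a-5p and miR-217-5p in *Zeb1 200M* were 1.73 and 1.85 times those in *Zeb1 200H*, whereas in the virgin cohort both mutants lay together. Whether the cohorts differ in this respect was not tested.

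**Figure D3:**
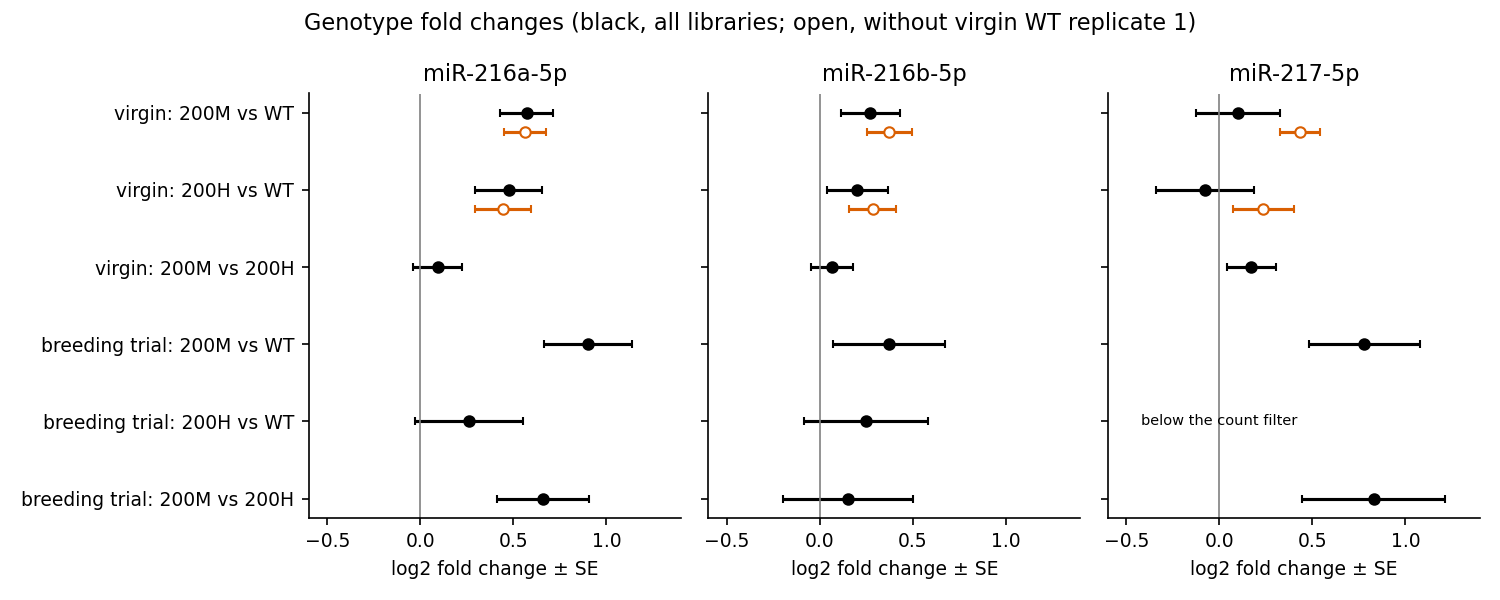
Log2 fold change with standard error (horizontal axis) of each tested member in the 3 genotype pairs of each cohort, from the edgeR fits. Filled points use all libraries and open points leave out WT replicate 1 of the virgin cohort, where miR-217-5p in virgin *Zeb1 200H* against WT goes from −0.08 to 0.24.

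Added over all members, the cluster stood at 216.7, 285 and 299.7 CPM in virgin WT (267 ± 44.3), at 391, 357, 521 and 384 CPM in *Zeb1 200H* (413 ± 73.3), and at 459, 408, 493 and 479.9 CPM in *Zeb1 200M* (460.1 ± 37.2). The breeding trial sums were 375, 272, 381 and 423 CPM in WT (363 ± 64.0), 418, 433 and 556 CPM in *Zeb1 200H* (469 ± 75.6), and 605, 692 and 839 CPM in *Zeb1 200M* (712 ± 118). The order WT, *Zeb1 200H*, *Zeb1 200M* was the same in both cohorts. The 2 mutant groups overlapped in virgin mice but not in breeding trial mice. *Zeb1 200H* overlapped with WT in breeding trial mice, and in virgin mice it did so on the TMM scale (329 to 503 CPM against 302 to 352 CPM) but not in CPM. The upper 352 CPM was that of WT replicate 1, and the other WT libraries, at 302 and 306 CPM, were below every *Zeb1 200H* library. *Zeb1 200M* was above WT in both cohorts and on both scales. Among single miRNAs, every virgin *Zeb1 200M* library was above every WT library for 30.5% in CPM and 13.9% on the TMM scale. In breeding trial mice it was so for 33.3% and 20.7%. Breeding trial *Zeb1 200M* was above *Zeb1 200H* for 12.0% and 9.12%. Virgin *Zeb1 200H* was above WT for 28.4% in CPM, and for 21.4% on the TMM scale without WT replicate 1.

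Pooled over libraries, the make-up of the cluster was close between the cohorts. Of the reads of the 3 abundant members in virgin mice, miR-216a-5p held 57.0%, miR-216b-5p 22.4% and miR-217-5p 20.6%, and in breeding trial mice 56.0%, 24.3% and 19.6%. In virgin WT replicate 1 miR-216a-5p held 43.9% and miR-217-5p 32.2%, the farthest from the other 10 libraries, in which miR-216a-5p held 54.4% to 59.8%. The ratio of miR-216a-5p to miR-217-5p was 1.36, 2.57 and 2.53 in the virgin WT libraries and ran from 2.77 to 3.06 among the *Zeb1 200H* libraries and from 2.57 to 3.05 among those of *Zeb1 200M*. Without WT replicate 1 the ratios of WT thus lay at the lower edge of those of the mutants. In the breeding trial cohort the share of miR-216a-5p ran from 32.0%, in *Zeb1 200H* replicate 3 with 8 of 25 reads, to 63.8%, and that of miR-216b-5p from 16.9% to 48.0%.

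**Figure D4:**
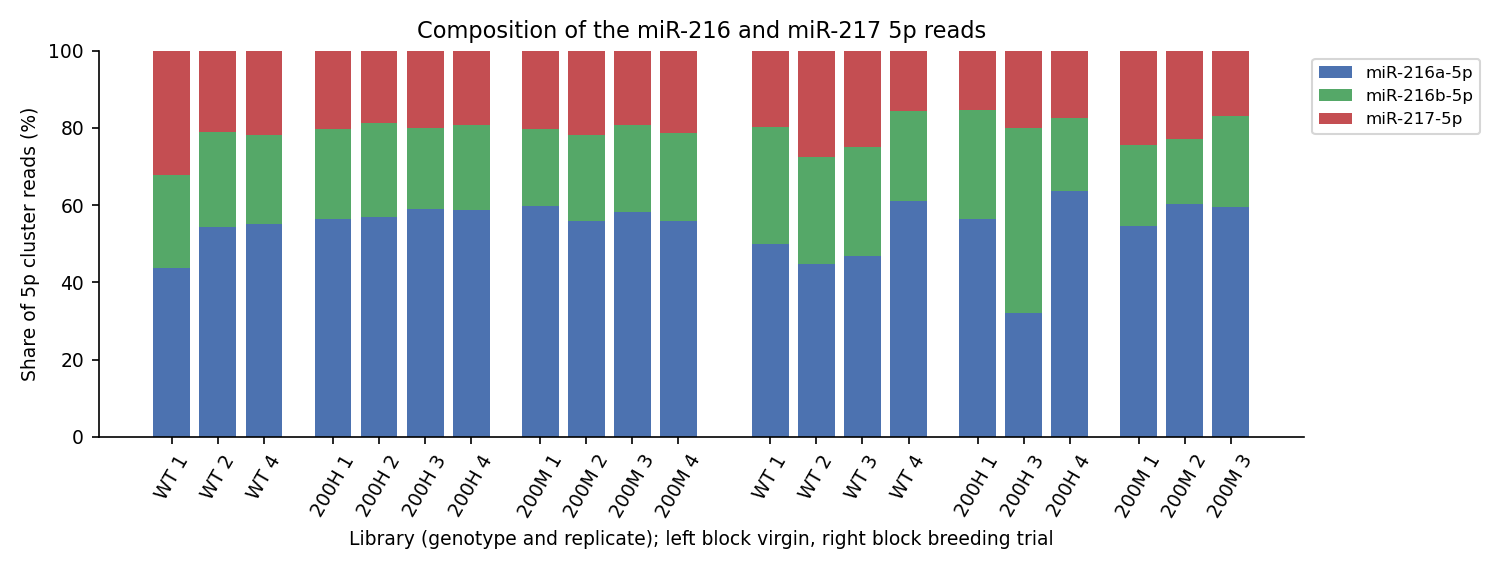
Share in percent (vertical axis) of miR-216a-5p, miR-216b-5p and miR-217-5p in the reads of the 3 members together, for each library of both cohorts. Stacked bars are libraries in order of genotype and replicate.

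WT levels were also set side by side between the cohorts. The mean CPM in breeding trial WT was 1.33 times that in virgin WT for miR-216a-5p, 1.53 times for miR-216b-5p and 1.17 times for miR-217-5p, where the median ratio over 615 miRNAs was 1.36. miR-216b-5p was the only one of the 3 without overlap between the cohorts, where 16.9% of the 615 miRNAs were above virgin WT in every breeding trial WT library. Relative to that median the ratios were 0.971, 1.12 and 0.858, and relative to the median of 252 better counted miRNAs, 1.31, they were 1.01, 1.17 and 0.896, so that miR-216a-5p lay on neither side of the rest. Without virgin WT replicate 1 they were 1.15, 1.405 and 1.22 beside a median of 1.21, again with only miR-216b-5p free of overlap, beside 19.7% of all miRNAs. Age, breeding history, library preparation, sequencer and the list of miRNAs that reads were matched to all differed between the cohorts and cannot be told apart.

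How far the 3 members went together from library to library depended on WT replicate 1. Over the 11 virgin libraries, on the log2 TMM scale, the Pearson correlation was 0.81 between miR-216a-5p and miR-216b-5p, 0.70 between miR-216b-5p and miR-217-5p and 0.38 between miR-216a-5p and miR-217-5p. Without WT replicate 1 these were 0.91, 0.87 and 0.91 over 10 libraries. After each genotype's mean was subtracted they were 0.70, 0.79 and 0.48 over 11 libraries and 0.83, 0.83 and 0.91 over 10. In CPM, over 11 libraries, the values were 0.97, 0.78 and 0.76, and 0.88, 0.43 and 0.37 with genotype means subtracted. Without WT replicate 1 the CPM values were 0.94, 0.91 and 0.94, and 0.79, 0.78 and 0.89 with genotype means subtracted. The values on both scales were thus close without that library and differed more with it. Members of a library share its scale, so these values are a description.

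By the same measure, the miRNAs most like the mean of the 3 members among 498 well-counted miRNAs in the virgin libraries were miR-139-5p (0.83), miR-135b-5p (0.83), miR-344b-3p (0.81), miR-199a/b-3p (0.80) and miR-384-5p (0.74). With genotype means removed the first 5 were miR-335-3p (0.89), miR-135b-5p (0.84), miR-203-3p.1 (0.81), miR-200a-3p (0.80) and miR-139-5p (0.79), and miR-344b-3p, miR-199a/b-3p and miR-384-5p had 0.74, 0.68 and 0.65. Of these, miR-335-3p and miR-200a-3p were negatively correlated with the cluster over all libraries (−0.28 and −0.49), where genotype enters. Only 2 of the first 5 over all libraries, miR-139-5p and miR-135b-5p, were also in the first 5 without WT replicate 1, and of those with genotype means removed only miR-335-3p was. miR-139-5p had a mean of 174 CPM in WT, 321 CPM in *Zeb1 200H* and 351 CPM in *Zeb1 200M*, and miR-135b-5p had 164, 296 and 299.7 CPM. Since genotype differences enter this ranking, their higher means in the mutants are partly fixed by the way they were picked.

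Because miR-216a, miR-216b and miR-217 are known from the pancreas, a list of 9 endocrine and islet miRNAs was set beside them. They are known from its exocrine acinar cells, so this endocrine list is no check of that link. In virgin mice 0 of its 9 miRNAs were called in edgeR for any pair of genotypes, and neither were any of the 6 members of the cluster. Beside this, 6.49% of all miRNAs were called in *Zeb1 200M* against WT, 5.06% in *Zeb1 200H* against WT and 2.22% between the mutants. The largest value of the list in *Zeb1 200M* against WT was that of miR-802-5p, 1.58 (adjusted p 0.0866). With WT replicate 1 left out, 1 of 9 (miR-802-5p) rose and 4 fell in *Zeb1 200M* against WT, where 23.9% of all miRNAs were called. In virgin *Zeb1 200H* against WT, also without that library, miR-802-5p rose and 2 fell (miR-148a-3p and miR-375-3p), where 21.6% were called. In breeding trial *Zeb1 200M* against WT none of the 8 tested rose and 3 fell, beside 35.9% of all miRNAs called (miR-129-5p by 0.38, miR-375-3p by 0.62 and miR-7a-5p by 0.45 on the log2 scale). miR-375-3p and miR-7a-5p are also on the pituitary list below. With total counted reads only, 2 rose and 1 fell. The median log2 fold change of the list was −0.40 in virgin and −0.30 in breeding trial *Zeb1 200M* against WT, beside −0.0025 and 0.0014 over all miRNAs, and with total counted reads only it was −0.03 and −0.06 beside 0.34 and 0.24. The TMM-scaled median without WT replicate 1 was −0.20 in virgin *Zeb1 200M*, beside 0.04 over all miRNAs, and in virgin *Zeb1 200H* it went from −0.27 to −0.0061, beside 0.0091.

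A list of neuronal and oligodendrocyte miRNAs had higher sums in the mutants, carried mainly by miR-124-3p. It summed to 2,163, 4,927 and 5,498 CPM in virgin WT, to 8,423, 8,848, 8,808 and 9,163 CPM in *Zeb1 200H* and came to 12,546, 11,220.0 and 12,339 CPM in *Zeb1 200M* replicates 1 to 3, with 8,979.8 CPM in replicate 4. Breeding trial sums were 7,351, 6,583, 6,291 and 7,587 CPM in WT, 12,900, 10,727 and 12,694 CPM in *Zeb1 200H*, and 17,190, 17,224 and 17,148 CPM in *Zeb1 200M*. The mean sums were thus in the order of the cluster, lowest in WT and highest in *Zeb1 200M*. In virgin mice 2 of 9 names, both of miR-124-3p, were called up in each mutant against WT (edgeR, log2 fold changes 2.26 and 1.98 in *Zeb1 200M*), and 5 of 9 without WT replicate 1, where 23.9% of all miRNAs were called in *Zeb1 200M* and 21.6% in *Zeb1 200H*. The oligodendrocyte miRNA miR-219a-5p was not called in either cohort, at −0.76 in virgin *Zeb1 200M* and −0.53 in virgin *Zeb1 200H* (−0.28 and −0.07 without WT replicate 1) and at 0.28 and 0.07 in the breeding trial mutants. miR-338-3p, of the same cell type, was at 0.38 and 0.35 in virgin *Zeb1 200M* and *Zeb1 200H* and not called. Without WT replicate 1 it was called in both, at 0.36 and 0.31. In breeding trial *Zeb1 200M* it was called at 0.45. In breeding trial *Zeb1 200M* against WT 4 of 7 were called up and none down, beside 35.9% of all miRNAs called in either direction, among them miR-124-3p (2.48) and miR-9-5p (0.89). For breeding trial *Zeb1 200H* against WT 1 of 7 was called up, miR-124-3p, beside 12.0%. The median of the list was 0.36 in virgin and 0.44 in breeding trial *Zeb1 200M* against WT. miR-124-3p was the most abundant of the list in the mutants and miR-137-3p in WT except WT replicate 1 of the virgin cohort, where it was miR-138-5p, and none was at 0 in any library. The part of neuronal or oligodendrocyte cells in the higher cluster levels was not tested.

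Vascular miRNAs had higher sums in the mutants in CPM, which contain the shift given above. They summed to 7,948, 8,464 and 7,676 CPM in virgin WT, to 10,669, 10,689, 8,722 and 10,267 CPM in *Zeb1 200H* and came to 11,968, 11,447, 9,022 and 11,178 CPM in *Zeb1 200M*. Breeding trial values were 10,010.0, 10,471, 10,370 and 10,378 CPM in WT, 13,972, 12,676 and 14,034 CPM in *Zeb1 200H*, and 15,924, 15,388 and 14,404 CPM in *Zeb1 200M*. All mutant libraries were above all WT libraries in each cohort in CPM. The same held for 30.5% of all miRNAs in virgin *Zeb1 200M* and 28.4% in virgin *Zeb1 200H*. In the breeding trial mutants the shares were 33.3% and 23.6% in the same order. In the TMM-scaled fits of virgin mice neither form of miR-126a-3p was called, with −0.22 ± 0.25 and −0.23 ± 0.25 in *Zeb1 200M* and −0.26 ± 0.26 and −0.24 ± 0.26 in *Zeb1 200H* against WT. These signs rested on WT replicate 1, as the values without it were 0.21 and 0.21 in *Zeb1 200M* and 0.15 and 0.17 in *Zeb1 200H*. In the edgeR fits 1 of 5 vascular miRNAs was called up in virgin *Zeb1 200M* against WT (miR-145a-5p, 0.57), beside 6.49% of all miRNAs, and 0 with DESeq2 size factors. For virgin *Zeb1 200H* 0 of 5 were called, beside 5.06%. Without WT replicate 1 the count was 1 of 5 in each mutant, beside 23.9% and 21.6%. In breeding trial *Zeb1 200M* against WT 4 of 4 were called up, beside 35.9% of all miRNAs, by 0.28 for miR-126a-3p to 0.39 for miR-143-3p. For breeding trial *Zeb1 200H* against WT 0 of 4 were called, beside 12.0%. The medians of the vascular list in *Zeb1 200M* against WT were 0.10 in virgin mice (0.21 without WT replicate 1) and 0.36 in breeding trial mice, and in virgin *Zeb1 200H* −0.05 (0.17 without it). The blood list had medians of 0.23 (0.11 without WT replicate 1) and 0.52 in *Zeb1 200M*, and in virgin *Zeb1 200H* 0.55 (0.29 without it). Blood and immune miRNAs gave 0 of 7 calls in virgin *Zeb1 200M* and *Zeb1 200H* against WT (1 and 2 without WT replicate 1, beside 23.9% and 21.6% of all miRNAs). In breeding trial *Zeb1 200M* against WT 3 of 6 were called up, the largest being miR-223-3p (1.06), again beside 35.9% of all miRNAs. For breeding trial *Zeb1 200H* against WT 0 of 6 were called, beside 12.0%. The blood sum in virgin mice was 5,727, 8,248 and 10,225 CPM in WT, 8,970.4, 19,652, 11,902 and 10,716 CPM in *Zeb1 200H*, and 10,896, 10,052, 10,231 and 11,873 CPM in *Zeb1 200M*. In breeding trial mice it was 6,581, 9,233, 6,326 and 6,914 CPM in WT, 7,827, 9,627 and 8,513 CPM in *Zeb1 200H*, and 8,840.5, 9,324 and 12,646 CPM in *Zeb1 200M*. miR-126a-3p led the vascular list and miR-451a the blood list in all libraries, none of either list was at 0, and the part of these cells in the cluster levels was not tested.

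The pituitary list had lower sums in the mutants. miR-141-3p and miR-200c-3p, members of the miR-200 families whose sites are mutated in the allele, were called down in all 6 pairs. The other 2 of the list, miR-7a-5p and miR-375-3p, were not called in virgin mice, where 2 of 4 were called against WT in each mutant, beside 6.49% (*Zeb1 200M*) and 5.06% (*Zeb1 200H*) of all miRNAs (3 of 4 in each without WT replicate 1). In breeding trial *Zeb1 200M* against WT 4 of 4 were called down, beside 35.9% of all miRNAs (3 with total counted reads only), and in *Zeb1 200H* 3 of 4, beside 12.0%, with miR-7a-5p at −0.16 and not called. The list summed to 380,726, 254,392 and 258,507 CPM in virgin WT, to 208,617 to 231,198 CPM in *Zeb1 200H* and came to 186,077 to 223,377 CPM in *Zeb1 200M*. In breeding trial mice it summed to 277,657 to 297,159 CPM in WT, 220,409 to 237,221 CPM in *Zeb1 200H* and 199,153 to 217,352 CPM in *Zeb1 200M*. The virgin library with the lowest miR-216a-5p level, WT replicate 1, also had the highest pituitary sum and the lowest neuronal and blood sums of its cohort. The most abundant of the list was miR-7a-5p in all virgin libraries and miR-7a-5p or miR-375-3p in the others, and its part in the cluster levels was not tested.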

How the data were processed

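The counts deposited by the authors were used, as raw counts of reads per miRNA and library in 6 tables, 1 for each pair of genotypes in each cohort. Each library had the same counts in both tables that held it. The authors had trimmed reads with cutadapt, filtered them by quality, matched their first bases to TargetScanMouse (virgin) or miRBase (breeding trial) miRNAs and removed spike-ins and size standards. Their normalized values, fold changes and p-values were read past and not used. No per-sample column of counts was left unused. Fits used edgeR 4.0.16 (TMM, filterByExpr, quasi-likelihood F test, Benjamini-Hochberg), limma 3.58.1 and DESeq2 1.42.0 in R 4.3.3, and the rest python 3.11.15, numpy 2.4.6, scipy 1.17.1 and matplotlib 3.10.9. Gene positions came from GENCODE vM21 and sequences from RefSeq. The scripts were tested on simulated data.

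The members and the miRNA lists were chosen with earlier results of these data known. The miRNAs named as most like the cluster were the first 5 by Pearson correlation, on the log2 TMM scale, with the mean of the 3 abundant 5p members, among those with a mean count of at least 50. Libraries of equal replicate number counted as paired only where at least 3 numbers were shared and the lowest correlation between partners passed a set limit. This held for breeding trial *Zeb1 200H* against WT alone, with correlations of 0.198 to 0.330. The main fits used no pairing. The alternatives were DESeq2, DESeq2 size factors in edgeR, total counted reads only, no count filter, all 3 genotypes in one fit, replicate blocks, limma voom with quality weights and leaving out each library. The list counts under other scales, and the list counts and values, overlap shares and cohort ratios without virgin WT replicate 1, were added after the values had been seen.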

Additional observations from a re-analysis of the deposited data

Results flagged for a closer look

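In groups of 4 libraries, a value far from the other 3 was looked for by Dixon's test in 54 groups, in which chance marks about 1 in 20 groups, and 3 were found. In breeding trial WT replicate 4 the 5p product held 97.9% of the reads of the miR-216a hairpin and 90.0% of those of the miR-216b hairpin, where it held 100% in the other 3 libraries. These rest on 1 and 2 reads of the 3p product, and beside 3 equal values any other value is marked. In virgin *Zeb1 200M* replicate 4 miR-216a-3p was at 2.53 CPM, where the other 3 libraries had 3.37 to 3.53 CPM.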

How the results depend on the processing

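Of 238 values of the 17 fold changes of the 3 abundant 5p members under the alternatives, 229 were within 1 standard deviation of replicates of the value with all libraries and TMM, 9 had moved farther, 11 had the other sign and 18 had another call. Of 129 values of the 9 fold changes of the 3p members, none had moved that far, 4 had the other sign, all between the mutants, and 5 had another call, all of miR-216a-3p. With total counted reads only, virgin *Zeb1 200M* against WT gave 0.93 for miR-216a-5p, 0.65 for miR-216b-5p and 0.54 for miR-217-5p, virgin *Zeb1 200H* against WT gave 0.78, 0.53 and 0.31, and breeding trial *Zeb1 200M* against WT gave 1.02 for miR-217-5p.

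Leaving out 1 library at a time, virgin *Zeb1 200M* against WT ran from 0.54 to 0.65 for miR-216a-5p, from 0.21 to 0.37 for miR-216b-5p and from −0.054 to 0.43 for miR-217-5p. Virgin *Zeb1 200H* against WT ran from 0.32 to 0.55, from 0.10 to 0.28 and from −0.24 to 0.24, and virgin *Zeb1 200M* against *Zeb1 200H* from 0.02 to 0.26, from 0.02 to 0.17 and from 0.08 to 0.34. In the breeding trial cohort *Zeb1 200M* against WT ran from 0.76 to 1.17, from 0.10 to 0.54 and from 0.72 to 0.87. *Zeb1 200H* against WT ran from −0.09 to 0.51 for miR-216a-5p and from −0.01 to 0.47 for miR-216b-5p, and *Zeb1 200M* against *Zeb1 200H* from 0.49 to 1.02, from −0.15 to 0.41 and from 0.69 to 1.00.

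The number of all miRNAs called depended on the method. Virgin *Zeb1 200M* against WT had 44 with all libraries, 86 with DESeq2, 90.0 with all 3 genotypes in one fit, 184 with limma voom and 25 to 168 leaving out 1 library. Virgin *Zeb1 200H* against WT had 34, and 66, 67, 152 and 21 to 151 in the same order, and virgin *Zeb1 200M* against *Zeb1 200H* had 15, and 5 with all 3 genotypes in one fit. In the breeding trial cohort *Zeb1 200M* against WT had 99, and 73 with DESeq2 and 110 with total counted reads only. *Zeb1 200H* against WT had 32, and 69 with total counted reads only. *Zeb1 200M* against *Zeb1 200H* had 3, and 5 with limma voom and 3 to 5 leaving out 1 library. The cause was not tested.

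With replicate numbers as blocks, only libraries whose number occurs in both genotypes were used. The calls were 20 in virgin *Zeb1 200M* against WT, 18 in virgin *Zeb1 200H* against WT and 0 in breeding trial *Zeb1 200M* against *Zeb1 200H* (29 below an unadjusted p of 0.05), where the same libraries without the block term gave 27, 22 and 3. In breeding trial *Zeb1 200H* against WT, the only pair where replicate numbers paired, WT replicate 2 was left out. The block gave 42 calls, and the same libraries without it 26. The values with the block were 0.10 ± 0.23 for miR-216a-5p, 0.12 ± 0.34 for miR-216b-5p and −0.05 ± 0.43 for miR-217-5p, which passed the count filter once that library was left out.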
